A study of Mus musculus with 12 samples.

Results

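The genes described here are the metalloproteinase family of the ADAMs (a disintegrin and metalloproteinase), the secreted ADAMTS enzymes, which carry thrombospondin repeats, and the ADAMTS-like proteins. Members were all rows of the count table whose mouse symbol is Adam, Adamts or Adamtsl followed by a number. Of the 19049 listed genes 39 qualified, namely 15 Adam, 19 Adamts and 5 Adamtsl genes. The annotation holds 57 such symbols, and the other 18 were not analysed here. All 39 passed the filter on low counts. The libraries are RNA-seq of colonic stroma from C57BL/6J mice in 3 groups of 4 libraries, for which the design text gives 4 mice each: normal adult colon at 8 weeks, growing colon at postnatal day 14 (P14, given as 2 weeks), and colonic tumours raised with azoxymethane and dextran sodium sulfate (AOM/DSS) at 12, 13, 14 and 14 weeks. No group carries a transgene or deletion in the labels. Cells were sorted as negative for EPCAM, CD31, CD45 and TER119, so the libraries are mixtures of the cells left after epithelial, endothelial, blood and red cells were gated out.

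ADAMs are membrane-anchored proteins. Those with an intact zinc-binding catalytic site release the outer part of growth factors, cytokines and adhesion molecules from the cell surface, and those without one act in adhesion or as receptors. ADAMTS enzymes are secreted into the matrix, where different clades cut the proteoglycans versican and aggrecan, trim the amino-terminal propeptide from fibrillar procollagens, or act on fibrillin microfibrils. ADAMTS-like proteins have the accessory domains without the protease and bind microfibrils.

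Levels are given as CPM, a gene's count scaled to the library's total count times its TMM factor, so that libraries of different depth can be compared. Values of 1 group follow the order N2M, N3M, N5M and N6M for normal adult, P1M to P4M for P14, and T1M, T2M, T6M and T8M for tumour libraries. Values after ± are SDs over 4 libraries for CPM and SEs of the fit for log2 fold changes. A gene was called at an adjusted p under 0.05 in edgeR's quasi-likelihood test with Benjamini-Hochberg adjustment over 18727 genes, and every adjusted p below comes from it. The 3 comparisons share libraries, so their values stand side by side and are not independent. In bulk RNA fewer cells of a type and less RNA per cell cannot be told apart.

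Total counts ranged from 15449444 to 38799033 per library, and T8M, the shallowest, had 9.14% of listed genes at 0 against at most 1.40% elsewhere. Fibroblast markers were abundant throughout (7 genes, summed 29168 to 37202 CPM in the adult, 72132 to 95061 CPM at P14 and 11075 to 31835 CPM in tumours), and most of that sum was the collagen Col3a1. Markers of gated cells were still present: 12 epithelial genes summed to 6604 to 13845, 415 to 2752 and 1515 to 5367 CPM, and 12 macrophage and leukocyte genes to 160.0 to 213, 26.02 to 42.6 and 13.4 to 119.6 CPM. The 8 endothelial markers summed to 98.5 to 213, 30.4 to 298 and 35.7 to 59.3 CPM, and the 6 glial ones to 201 to 304, 125 to 201 and 73.2 to 303 CPM. The 8 smooth muscle genes stood at 995 to 1794, 3925 to 7911 and 1077 to 2135 CPM. Tumour libraries also held 5 squamous epithelial markers at 4085 to 12449 CPM, against 7.34 to 266 and 46.6 to 93.5 CPM. No listed marker of these lists was at 0 in a whole group. The design text states both sexes in every group, yet all 4 tumour libraries had high Xist and at most 1 count over 4 Y-linked genes, whereas 2 normal adult and 2 P14 libraries had Xist under 1 CPM. Sex and tumour are thus partly confounded, and the results are also given with a term for Xist.

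All calls of the family at P14 against the adult were rises, and in tumours calls went both ways. At P14 against normal adult, 18 of 39 members rose and 0 fell, while 14.9% of all tested genes were called higher and 16.0% lower. The share of members called higher was 46.2%, and the median log2 fold change was 0.60 over members against -0.00189 over all genes. All but 4 of the 18 were Adamts genes (14 of 19, median 1.31). The counts in subfamilies and partner lists below, most of them under 10 genes, stand against these shares over all genes, and a count near them is no result about the list. The count of 0 falls is edgeR's; 2 members were lower at an unadjusted p under 0.05, and DESeq2 called 1. In 20 members every P14 library exceeded every normal adult library, and in 3 every one was lower, where 21.6% and 21.7% of all genes did so. Tumour against normal adult gave 5 rises and 8 falls among 39 (background 10.6% and 8.29%), with a median of -0.14 against 0.000755, and the groups did not overlap in 5 higher and 7 lower members (background 11.0% each). Tumour against P14 gave 3 members higher and 21 lower (background 19.7% and 17.3%), with a median of -0.92 against 0.05, and 2 higher and 21 lower without overlap (background 14.8% and 17.3%). With a term for Xist the counts were 16 and 0, 4 and 6, and 2 and 18. With the 8 libraries of high Xist alone, which leave 2 normal adult and 2 P14 libraries, they were 1 and 0, 2 and 2, and 2 and 14. All 8 smooth muscle markers rose at P14, and all P14 libraries exceeded all others in their sum. The fibroblast sum was likewise highest at P14, but 46400 to 67300 CPM of it there was Col3a1. Only 3 of the 7 fibroblast markers were called higher (Col1a1, Col1a2 and Col3a1, collagens that are counted again among the procollagens below). Dcn and Pdgfra overlapped between P14 and adult. Lum read 984 to 1930 CPM at P14 against 781 to 1000 CPM in the adult, and Dpt 1630 to 2990 CPM against 2950 to 4480 CPM. The part of these cells in the family's P14 calls was not tested.

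**Figure D1:**
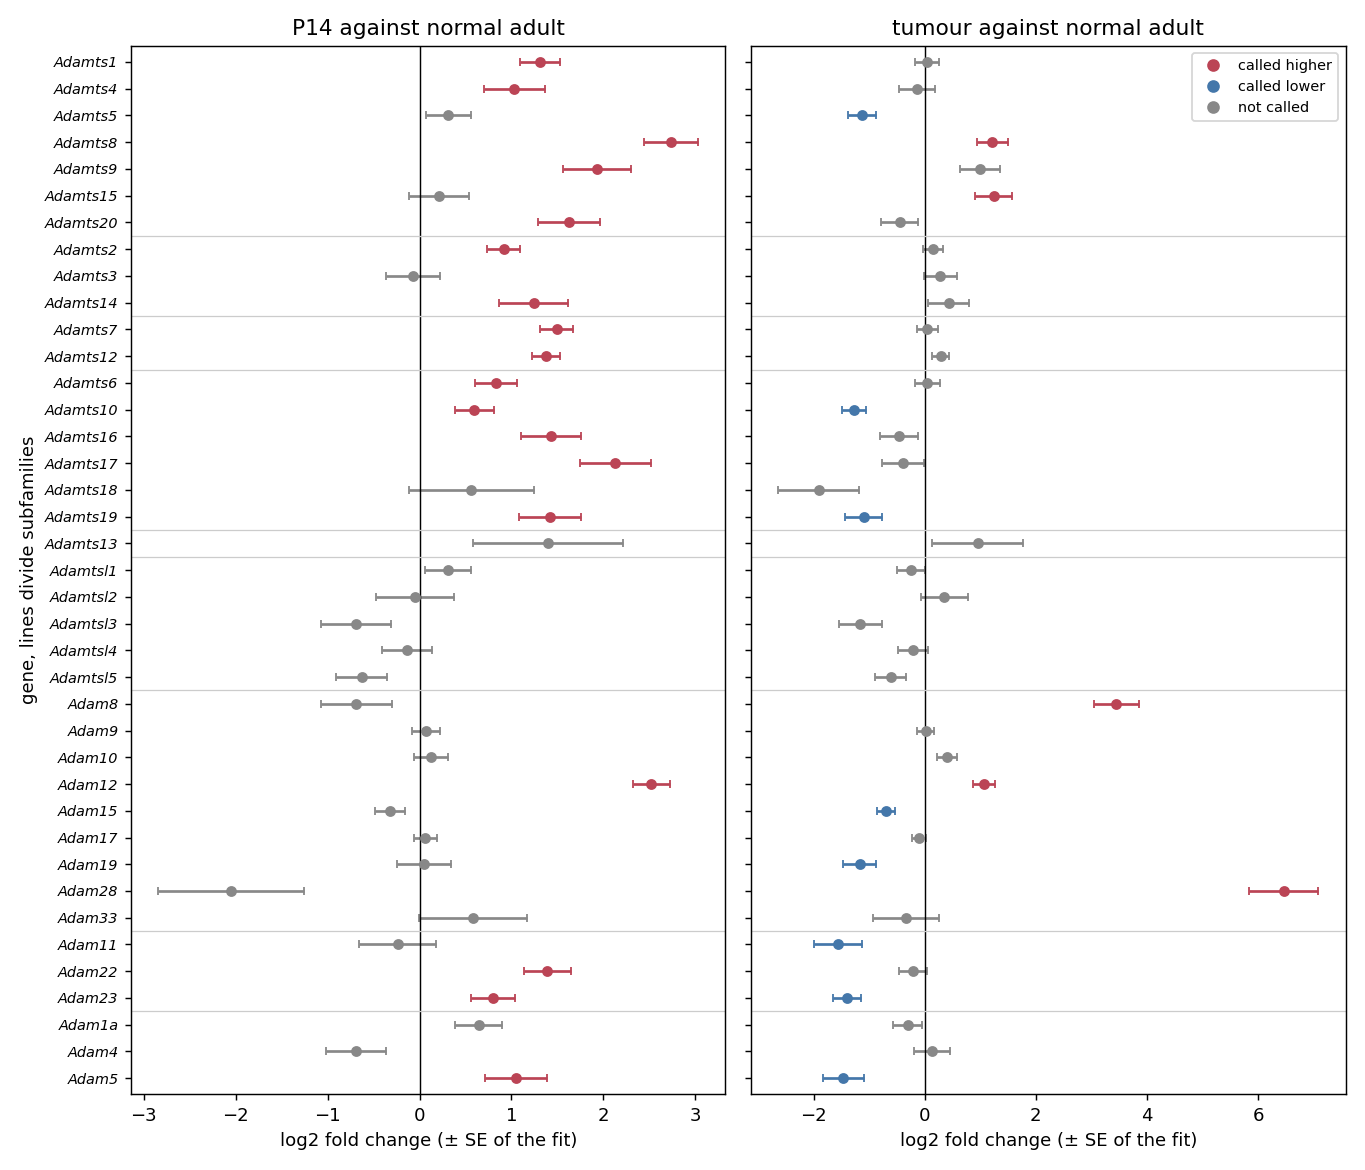
Log2 fold change (horizontal axis, bars ± SE of the fit) of the 39 members at P14 (left) and in tumours (right) against normal adult libraries, in order of subfamily, coloured by call. Rises at P14 lie mostly among Adamts genes (14 of 19), whereas Adam28 and Adam8 stand far to the right in tumours (6.46 and 3.45).

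The members fell into few patterns over the 3 comparisons. A set of 10 genes rose at P14, did not pass in tumours against the adult, and were lower in tumours than at P14 (Adam22, Adamts1, Adamts2, Adamts4, Adamts6, Adamts7, Adamts12, Adamts16, Adamts17 and Adamts20). Adamts9 and Adamts14 were called at P14 only. Adam5, Adam23, Adamts10 and Adamts19 rose at P14 and fell in tumours, both against the adult. Adam12 and Adamts8 rose in both, and were lower in tumours than at P14. Adam8, Adam28 and Adamts15 rose in tumours against both other groups, and Adam11, Adam19 and Adamts5 fell against both. Adam15 was lower in tumours than in the adult, Adam1a and Adamts18 were lower in tumours than at P14, and 12 members were not called.

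Levels were compared between genes per kilobase of annotated exon (CPM per kb). In every group the order began with Adamts1, Adamts4 and Adam9. Adamts1 averaged 114 ± 21.3 CPM per kb in normal adult, 283 ± 79.9 in P14 and 118 ± 21.9 in tumour libraries, and Adamts4 averaged 70.8 ± 17.8, 145 ± 53.5 and 64.4 ± 29.6. Adam9 followed at 40.6 ± 4.26, 42.6 ± 3.65 and 41.1 ± 8.45 CPM per kb. The next in the adult were Adamtsl3 (26.8 ± 5.10), Adam19 (23.1 ± 6.15) and Adamts2 (22.00 ± 3.19), neighbours that lie within their spread. At P14 Adamts2 came next (41.5 ± 5.89), within the spread of Adam9. Adam28 was last in normal adult and P14 libraries and Adamts16 last in tumours (0.0918 ± 0.0194).

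Summed per kb, the 7 proteoglycan-cleaving ADAMTS genes made up the most of any subfamily: 201 ± 39.4 CPM per kb in normal adult, 463 ± 138 in P14 and 204 ± 50.6 in tumour libraries, or 47.6%, 61.7% and 51.6% of the family. The 9 ADAMs with a catalytic site stood at 103 ± 4.44, 110.0 ± 7.66 and 102 ± 5.64 CPM per kb. The 6 fibrillin-linked and orphan ADAMTS genes stood at 26.9 ± 6.16, 51.3 ± 4.09 and 13.7 ± 3.05 CPM per kb. The 3 procollagen enzymes stood at 25.8 ± 3.97, 48.3 ± 6.81 and 29.2 ± 6.14, and the 5 ADAMTS-like genes at 45.2 ± 8.90, 33.4 ± 3.96 and 27.3 ± 9.30. These sums are descriptions and carry no test.

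**Figure D2:**
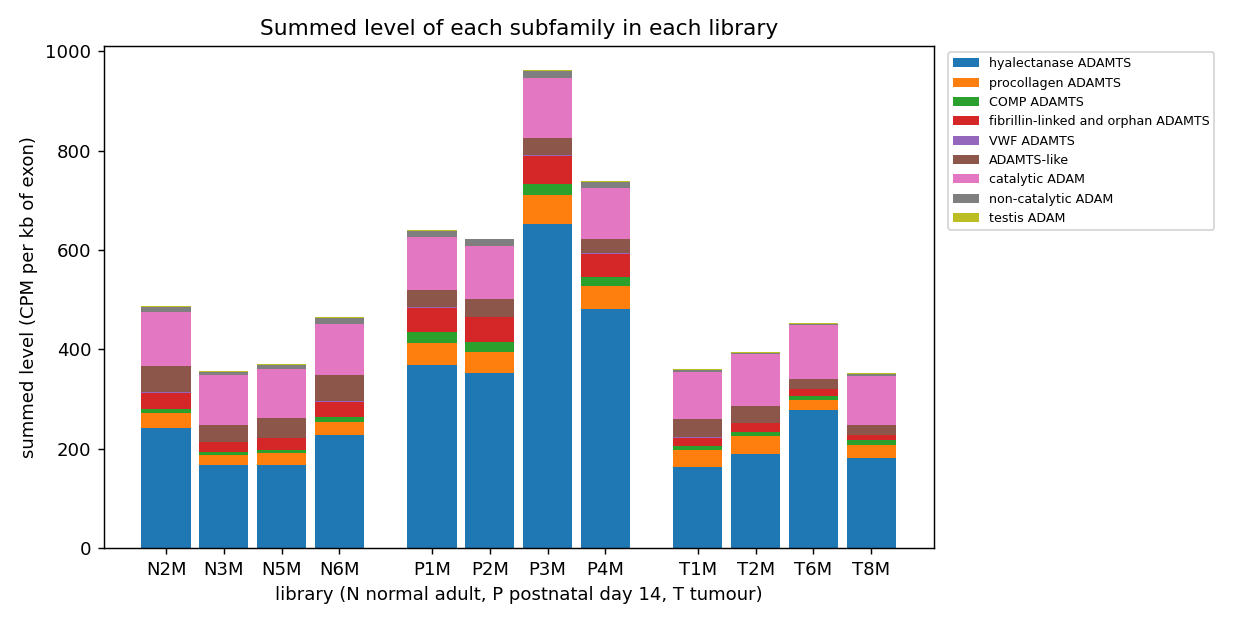
Summed level (vertical axis, CPM per kb of exon) of each of 9 subfamilies in each of 12 libraries (horizontal axis). The P14 bars are tallest and the proteoglycan-cleaving ADAMTS genes are the widest band, with P3M reaching 652 CPM per kb for that band alone.

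Among the ADAMTS enzymes that cut hyaluronan-binding proteoglycans, 5 of 7 rose at P14, and in tumours 2 rose and 1 fell against the adult. Adamts1, which cuts versican and aggrecan (ENSMUSG00000022893, chromosome 16, 85793827 to 85803113 on the minus strand, GRCm38), read 722, 497, 519 and 678 CPM in the adult, 1229, 1167, 2095 and 1506 CPM at P14 and 532, 597, 794 and 578 CPM in tumours. Every P14 library stood above all others, and normal adult and tumour libraries overlapped. It rose at P14 (log2 fold change 1.31 ± 0.22, adjusted p = 0.00129) and was lower in tumours than at P14 (log2 fold change -1.26 ± 0.22, adjusted p = 0.000946), with 0.05 ± 0.22 for tumour against adult (adjusted p = 0.899). Adamts4, an aggrecanase (ENSMUSG00000006403, chromosome 1, 171250421 to 171260637 on the plus strand), read 434, 284, 254 and 391 CPM in the adult, 498, 479.7, 1019 and 787 CPM at P14 and 186, 262, 515 and 275 CPM in tumours. P14 libraries were again above every adult one, but T6M reached into the P14 range. Adamts4 rose at P14 (log2 fold change 1.03 ± 0.33, adjusted p = 0.0317), a call that ended without N3M, N5M, P3M or P4M, the change being 0.79 without P3M and 0.91 to 0.97 without the others. It was lower in tumours than at P14 (log2 fold change -1.17 ± 0.33, adjusted p = 0.0153), which did not hold with the term for Xist (-1.07, adjusted p = 0.0539).

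Adamts9, a versican-cutting enzyme with a GON domain (ENSMUSG00000030022, chromosome 6, 92772699 to 92943492 on the minus strand), read 49.7, 44.5, 49.6 and 75.1 CPM in the adult, 126, 130.2, 357 and 220.2 CPM at P14 and 106, 62.1, 168 and 103 CPM in tumours. P14 libraries were all above the adult ones, with P3M far the highest, and tumour libraries spanned the gap between. It rose at P14 (log2 fold change 1.93 ± 0.37, adjusted p = 0.00235), and tumour against adult gave 1.00 ± 0.36 (adjusted p = 0.0692), called without P3M (1.00) or T2M (1.21), by DESeq2 (0.99) and with the 2 groups alone (1.02). Tumour against P14 gave -0.93 ± 0.36 (adjusted p = 0.0583), called without P1M (-1.11), P2M (-1.10) or T6M (-1.21), and by DESeq2 (-0.93). Its close relative Adamts20 read 2.53, 1.88, 3.21 and 6.13 CPM in the adult, 9.81, 12.4, 12.2 and 8.09 CPM at P14 and 2.47, 3.26, 2.02 and 2.29 CPM in tumours, low levels at which P14 did not overlap the rest. Adamts20 rose at P14 (log2 fold change 1.63 ± 0.34, adjusted p = 0.00354) and was lower in tumours than at P14 (log2 fold change -2.08 ± 0.34, adjusted p = 0.0007). The genes A730049H05Rik and Gm15737 overlap Adamts9 exons on the other strand. The libraries are stranded per the labels, but the strand setting of the counting is not given in the sources used here.

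Within the P14 group Adamts1, Adamts4 and Adamts9 were each highest in P3M, second in P4M and lower in P1M and P2M. A list of 8 immediate early genes, written after these values were seen, summed to 6473, 6657, 8167 and 7404 CPM in P1M to P4M, in the same order for P3M and P4M. The normal adult libraries ranged from 4279 to 5838 CPM for that list. In tumours the 3 enzymes were highest in T6M, where the sum was lowest (4246 CPM against up to 6164 CPM). These genes respond to digestion of tissue as well as to signals in it, and their part in the P14 rise was not tested.

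Adamts8, a further member of this clade (ENSMUSG00000031994, chromosome 9, 30942562 to 30963838 on the plus strand), had the largest rise of the family at P14. It read 3.20, 4.02, 6.99 and 6.78 CPM in the adult, 39.7, 41.1, 30.3 and 29.3 CPM at P14 and 16.9, 9.38, 13.5 and 9.08 CPM in tumours, and no library of 1 group reached into another. Adamts8 rose at P14 (log2 fold change 2.74 ± 0.29, adjusted p = 0.000135) and in tumours (log2 fold change 1.22 ± 0.28, adjusted p = 0.0107), and tumours stood below P14 (log2 fold change -1.52 ± 0.28, adjusted p = 0.00138). Its exons overlap those of Gm29724 on the other strand. Adamts15, which cuts versican, read 24.2, 34.8, 38.6 and 35.1 CPM in the adult, 46.1, 40.1, 36.5 and 31.4 CPM at P14 and 101, 128, 44.4 and 39.3 CPM in tumours. T1M and T2M were high while T6M and T8M lay just above the adult libraries and within the P14 range. Adamts15 rose in tumours against the adult (log2 fold change 1.24 ± 0.33, adjusted p = 0.0217), and the call ended without N2M (1.11) or T1M (1.09), and with the term for Xist (1.16, adjusted p = 0.0747). It was also higher than at P14 (log2 fold change 1.02 ± 0.33, adjusted p = 0.0289), which did not hold without P2M (1.04), P3M (0.99), P4M (0.93), T1M (0.87) or T2M (0.67), with the term for Xist (0.94, adjusted p = 0.097), by limma voom (0.88) or with the 2 groups alone (1.04).

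Adamts5, the other major aggrecanase of cartilage (ENSMUSG00000022894, chromosome 16, 85856173 to 85901828 on the minus strand), went the opposite way. It read 86.02, 71.3, 80.04 and 88.3 CPM in the adult, 112, 100.1, 105 and 87.9 CPM at P14 and 51.8, 49.7, 22.9 and 24.1 CPM in tumours. All tumour libraries were below all others, T6M and T8M most. Adamts5 fell in tumours against the adult (log2 fold change -1.13 ± 0.25, adjusted p = 0.0079) and was lower than at P14 (log2 fold change -1.45 ± 0.25, adjusted p = 0.00093), with 0.31 ± 0.24 at P14 against the adult (adjusted p = 0.363), which the fit of those groups alone called (0.32).

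Adamts15 and Adamts8, and Adamts1 and Adamts5, are neighbours on the genome. Adamts15 lies 20.1 kb from Adamts8 on chromosome 9, on opposite strands, and Adamts5 lies 53.1 kb from Adamts1 on chromosome 16, on the same strand. At P14 against the adult the log2 fold changes were 2.74 ± 0.29 for Adamts8 beside 0.21 ± 0.33 for Adamts15, and 1.31 ± 0.22 for Adamts1 beside 0.31 ± 0.24 for Adamts5. In tumours against the adult both genes of the first pair rose, while in the second Adamts5 fell and Adamts1 stood at 0.05 ± 0.22. The difference within a pair was not tested.

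Promoter sequences are shown for the 2 proteoglycan enzymes of the P14 rise that have an entry near the GENCODE start, Adamts1 and Adamts9, and below for Adamts17, an orphan enzyme that also rose at P14, and Adam8, which rose in tumours. RefSeq's table (GRCm38.p6) matched 22 of 39 members. The 250 bases before the start were searched on both strands for the TATA box (TATAAA), the CCAAT box, the GC box (GGGCGG), the AP-1 site (TGANTCA), the TEAD site (GGAATG), the CRE (TGACGTCA) and the NF-kB site, and capitals mark the matches. The Adamts1 window is chr16:85803114-85803363 and the Adamts9 window chr6:92943535-92943784, both on the minus strand and written 5′ to 3′.
Adamts1: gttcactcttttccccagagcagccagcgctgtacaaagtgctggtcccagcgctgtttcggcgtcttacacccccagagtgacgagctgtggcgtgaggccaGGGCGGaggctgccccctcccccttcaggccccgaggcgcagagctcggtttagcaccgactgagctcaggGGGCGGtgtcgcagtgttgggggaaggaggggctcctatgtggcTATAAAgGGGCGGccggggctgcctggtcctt
Adamts9: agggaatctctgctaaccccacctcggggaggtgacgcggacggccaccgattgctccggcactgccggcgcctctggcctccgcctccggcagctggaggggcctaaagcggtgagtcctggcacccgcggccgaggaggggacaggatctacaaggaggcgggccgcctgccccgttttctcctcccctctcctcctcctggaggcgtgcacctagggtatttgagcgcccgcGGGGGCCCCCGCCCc
In Adamts1 the TATA box match begins 32 bases before the start, just before a GC box at 25 bases, with further GC boxes at 76 and 147 bases. In Adamts9 an NF-kB match at 15 bases overlaps a GC box at 7 bases. A GC box was present in 15 of 22 member windows (68.2%) and in 32.7% of 32851 promoters, and the median GC content was 66.2% against 52.4%. The TATA box was in 2 of 22 (9.09% against 12.4% of promoters), CCAAT in 6 (27.3% against 33.8%), the NF-kB site in 3 (13.6% against 7.25%), the TEAD site in 2 (9.09% against 12.6%), the AP-1 site in 1 (4.55% against 6.75%) and the CRE in none (against 1.55%). The 22 include windows far from the GENCODE start, those of Adamts20 (61068 bases away) and Adam1a (23787 bases away). Adamts20 is counted under the GC box, CCAAT and NF-kB site, and Adam1a under CCAAT. All of these are matches of letters and nothing more.

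**Figure D3:**
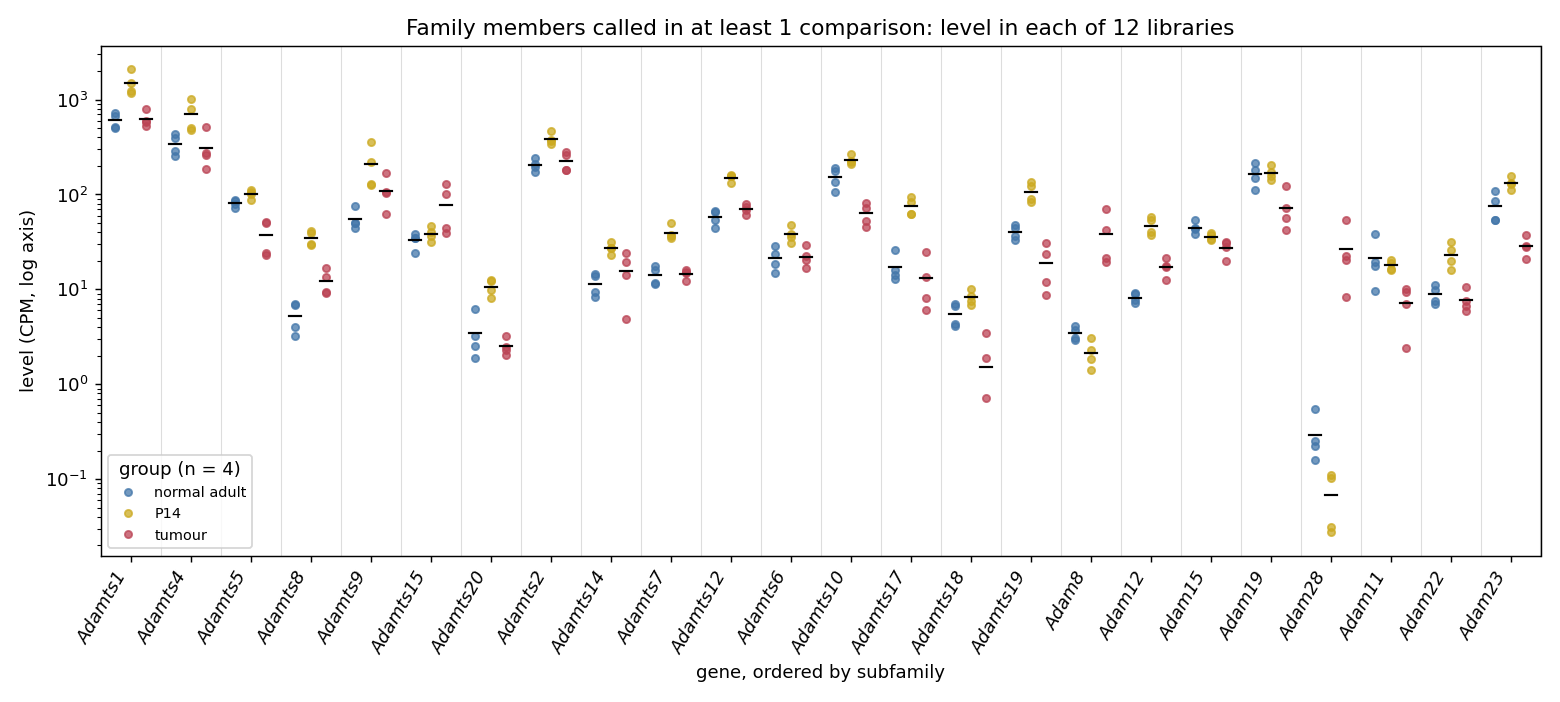
Level in CPM (vertical log axis) of the 24 members called in at least 1 comparison with a group mean of at least 5 CPM, 1 point per library, bars for group means, genes by subfamily along the horizontal axis. P14 points lie above the adult points for every Adamts gene plotted that was called higher, and Adam8 and Adam28 are high in tumours alone; the T6M value of Adamts18 is 0 and cannot be drawn on the log axis.

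Of the 3 enzymes of the procollagen N-propeptidase clade, 2 rose at P14 and none passed in tumours against the adult. Adamts2, which trims collagens I, II and III (ENSMUSG00000036545, chromosome 11, 50602084 to 50807573 on the plus strand), read 244, 173, 194 and 210.2 CPM in the adult, 368, 342, 467 and 372 CPM at P14 and 258, 283, 181 and 183 CPM in tumours. P14 libraries stood apart above, and adult and tumour libraries overlapped. Adamts2 rose at P14 (log2 fold change 0.92 ± 0.18, adjusted p = 0.00286) and was lower in tumours than at P14 (log2 fold change -0.78 ± 0.18, adjusted p = 0.00542). Adamts14, with the same activity, read 14.4, 8.33, 9.34 and 13.9 CPM in the adult, 27.3, 22.8, 31.7 and 27.04 CPM at P14 and 19.5, 14.00, 4.85 and 23.9 CPM in tumours, the tumour values ranging from below the adult libraries (T6M) into the P14 range (T8M). It rose at P14 (log2 fold change 1.24 ± 0.37, adjusted p = 0.0237), a call lost without N3M (1.11), N5M (1.15) or P3M (1.16). Tumour against adult (0.43 ± 0.37, adjusted p = 0.45) was called without T6M (0.73), and tumour against P14 (-0.81 ± 0.37, adjusted p = 0.103) without T8M (-1.09) and by limma voom (-1.06). Adamts3, which also processes the lymphatic growth factor VEGF-C, stayed between 5.97 and 17.2 CPM over all 12 libraries with no call.

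Both COMP-cleaving enzymes rose at P14. Adamts7 (ENSMUSG00000032363, chromosome 9, 90163069 to 90208071 on the plus strand) read 17.5, 11.6, 11.4 and 15.9 CPM in the adult, 36.4, 35.1, 50.04 and 37.4 CPM at P14 and 15.4, 12.2, 15.9 and 14.9 CPM in tumours. Adamts12 (ENSMUSG00000047497, chromosome 15, 11064790 to 11349231 on the plus strand) read 67.5, 43.8, 54.3 and 65.5 CPM in the adult, 159, 156, 155 and 132 CPM at P14 and 73.7, 69.2, 60.05 and 79.8 CPM in tumours. In both genes the P14 libraries lay above all others. The tumour libraries lay within the adult range for Adamts7. For Adamts12 T1M, T2M and T8M lay above every adult library and T6M within their range. Adamts7 rose at P14 (log2 fold change 1.49 ± 0.18, adjusted p = 0.000275) and was lower in tumours than at P14 (log2 fold change -1.44 ± 0.18, adjusted p = 0.000134). Adamts12 likewise rose at P14 (log2 fold change 1.38 ± 0.15, adjusted p = 0.000157) and was lower in tumours than at P14 (log2 fold change -1.09 ± 0.15, adjusted p = 0.000247). Against the adult, tumours gave 0.05 ± 0.18 for Adamts7 (adjusted p = 0.881) and 0.29 ± 0.15 for Adamts12 (adjusted p = 0.205). Adamts7 overlaps Tbc1d2b on the other strand.

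Of 6 fibrillin-linked and orphan enzymes, 5 rose at P14, 2 fell in tumours against the adult, and all 6 were lower in tumours than at P14. Adamts17, a secreted enzyme known to cut itself (ENSMUSG00000058145, chromosome 7, 66839735 to 67153171 on the plus strand), read 25.8, 12.8, 14.1 and 15.9 CPM in the adult, 62.8, 61.6, 93.7 and 82.9 CPM at P14 and 13.6, 8.05, 24.5 and 6.08 CPM in tumours. Every P14 value was more than any other. It rose at P14 (log2 fold change 2.13 ± 0.38, adjusted p = 0.00181) and was lower in tumours than at P14 (log2 fold change -2.52 ± 0.39, adjusted p = 0.000462). Its promoter window is chr7:66839485-66839734 on the plus strand, with CCAAT matches 116 and 75 bases before the start in capitals.
Adamts17: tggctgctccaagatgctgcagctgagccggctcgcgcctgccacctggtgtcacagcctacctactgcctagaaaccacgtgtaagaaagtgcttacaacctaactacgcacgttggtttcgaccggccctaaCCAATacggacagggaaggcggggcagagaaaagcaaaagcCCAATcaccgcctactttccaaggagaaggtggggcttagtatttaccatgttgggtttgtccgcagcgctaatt

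Adamts19, the paralog of Adamts17, read 47.4, 33.1, 36.7 and 43.9 CPM in the adult, 134, 123, 83.4 and 88.7 CPM at P14 and 23.8, 30.7, 8.62 and 11.9 CPM in tumours, with no overlap between groups. It rose at P14 (log2 fold change 1.42 ± 0.34, adjusted p = 0.00741), was lower in tumours than at P14 (log2 fold change -2.51 ± 0.35, adjusted p = 0.000239), and fell in tumours against the adult (log2 fold change -1.10 ± 0.34, adjusted p = 0.0384). That last call did not survive leaving out N2M, N3M, N5M, N6M, P2M, T6M or T8M (-1.18 to -0.86), nor the term for Xist (-1.13, adjusted p = 0.0829) or the fit of the 2 groups alone (-1.09).

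Adamts10, which promotes fibrillin-1 microfibrils (ENSMUSG00000024299, chromosome 17, 33524204 to 33553782 on the plus strand), read 177, 107, 137 and 189 CPM in the adult, 218, 228, 264 and 212 CPM at P14 and 71.9, 82.3, 52.3 and 45.9 CPM in tumours. The 3 groups lay in separate ranges, tumours lowest. Adamts10 fell in tumours against the adult (log2 fold change -1.27 ± 0.22, adjusted p = 0.0018) and was lower than at P14 (log2 fold change -1.87 ± 0.22, adjusted p = 8.03e-05). Its P14 rise (log2 fold change 0.60 ± 0.21, adjusted p = 0.0495) was at the threshold and ended without any of N2M, N3M, N5M, P1M to P4M or T1M (0.46 to 0.68), with the term for Xist (0.60, adjusted p = 0.0669), and with RLE (0.58) or upper-quartile scaling (0.63). Its paralog Adamts6 read 28.6, 18.6, 15.03 and 23.4 CPM in the adult, 35.7, 38.7, 47.3 and 30.8 CPM at P14 and 22.3, 29.1, 16.8 and 20.3 CPM in tumours, P14 again above the rest. Adamts6 rose at P14 (log2 fold change 0.83 ± 0.23, adjusted p = 0.0144) and was lower in tumours than at P14 (log2 fold change -0.78 ± 0.23, adjusted p = 0.0166), the latter lost without P3M (-0.67) and with the term for Xist (-0.60, adjusted p = 0.0816). Adamts18 read 4.36, 4.13, 6.63 and 7.09 CPM in the adult, 10.03, 8.48, 7.53 and 6.81 CPM at P14 and 1.89, 0.716, 0 and 3.50 CPM in tumours, with no count in T6M. It was lower in tumours than at P14 (log2 fold change -2.48 ± 0.73, adjusted p = 0.0192, or -3.24 without T8M), a call the fit of those 2 groups alone did not give (-2.46), and against the adult it gave -1.91 ± 0.73 (adjusted p = 0.0864), called without T6M (-1.49) or T8M (-2.68), by DESeq2 (-1.91) and by limma voom (-3.39). Adamts16, its paralog, averaged 0.863 ± 0.360, 2.33 ± 0.145 and 0.628 ± 0.132 CPM, and rose at P14 (log2 fold change 1.43 ± 0.33, adjusted p = 0.00621) and was lower in tumours than at P14 (log2 fold change -1.89 ± 0.34, adjusted p = 0.00117).

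Adamts13, the enzyme that cuts von Willebrand factor, read 2.24, 1.18, 1.80 and 2.59 CPM in the adult, 4.29, 4.49, 6.98 and 4.97 CPM at P14 and 9.99, 1.36, 3.68 and 0 CPM in tumours. Its tumour values ran from no count in T8M to the highest of all in T1M. It was not called (at P14 1.40 ± 0.82, adjusted p = 0.216), although P14 and adult libraries did not overlap, and the P14 rise was called without T8M (1.40) and with those groups alone (1.41).

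None of the 5 ADAMTS-like genes was called with TMM scaling in edgeR over all 12 libraries, at log2 fold changes from -0.69 ± 0.38 (Adamtsl3) to 0.31 ± 0.25 (Adamtsl1) at P14 and from -1.16 ± 0.38 (Adamtsl3) to 0.36 ± 0.42 (Adamtsl2) in tumours, both against the adult. Adamtsl3, a matrix glycoprotein, was the most abundant: 254, 165, 187 and 224 CPM in the adult, 155, 168, 106 and 82.8 CPM at P14 and 105, 169.6, 44.3 and 50.5 CPM in tumours. T6M and T8M were lowest and T2M reached the adult range. Tumour against adult (log2 fold change -1.16 ± 0.38, adjusted p = 0.0511) missed the threshold, but it was called lower by DESeq2 (-1.19, adjusted p = 0.0115), by limma voom (-1.34, adjusted p = 0.0265), and with RLE (-1.18) or upper-quartile scaling (-1.17). It was also called without T2M (-1.63) or P4M (-1.17), and tumour against P14 without T2M (-0.95). With the P14 and adult libraries fitted alone Adamtsl3 was called lower at P14 (-0.69, adjusted p = 0.0353). Adamtsl1 read 29.1 to 62.4 CPM in the adult, 54.8 to 60.9 CPM at P14 and 28.4 to 61.2 CPM in tumours, and tumour against P14 was called without T1M (-0.83). Adamtsl4, which binds fibrillin-1, ranged from 23.1 to 53.4 CPM over all libraries, both extremes being P14 libraries. Adamtsl2 ranged from 4.13 to 20.6 CPM, both in tumours. Adamtsl5 read 16.8 to 26.4 CPM in the adult, 12.5 to 15.2 CPM at P14 and 9.08 to 23.2 CPM in tumours. Its P14 and adult libraries did not overlap, and without T1M it was called at P14 (-0.63) and in tumours (-0.96), both against the adult. The fit of P14 and adult alone also called it at P14 (-0.63, adjusted p = 0.0122).

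Of 9 ADAMs with a catalytic site, 1 rose at P14 (11.1%, near the 14.9% of all tested genes), and in tumours 3 rose and 2 fell against the adult (10.6% and 8.29% of all tested genes). The sheddases with the broadest range were not called in any comparison. Adam17, which sheds TNF and several EGF family ligands, read 124, 100.1, 97.9 and 106 CPM in the adult, 116, 118, 110.3 and 101 CPM at P14 and 86.04, 112, 94.9 and 106 CPM in tumours. Adam10, which makes the first cut of Notch receptors after ligand binding, read 61.4, 78.5, 68.8 and 67.8 CPM in the adult, 73.7, 72.9, 84.7 and 70.2 CPM at P14 and 114, 61.4, 111 and 78.7 CPM in tumours. Adam9, another widely expressed sheddase, read 181, 179, 165 and 143 CPM in the adult, 169.5, 169, 198 and 166 CPM at P14 and 171, 218, 144 and 144 CPM in tumours. The groups overlapped in all 3 genes. In tumours against the adult the changes were -0.10 ± 0.12 for Adam17, 0.40 ± 0.18 for Adam10 and 0.02 ± 0.15 for Adam9 (adjusted p from 0.146 to 0.945), and without T2M Adam10 was called against the adult (0.57) and against P14 (0.42). At P14 they were 0.06 ± 0.12, 0.13 ± 0.18 and 0.07 ± 0.15. Adam17 overlaps Iah1 on the other strand.

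Adam12, or meltrin alpha, a protease of mesenchyme and regenerating muscle (ENSMUSG00000054555, chromosome 7, 133883199 to 134232146 on the minus strand), read 8.84, 7.15, 9.09 and 7.70 CPM in the adult, 57.5, 53.3, 37.1 and 40.02 CPM at P14 and 12.7, 17.1, 21.6 and 17.5 CPM in tumours. No library of 1 group reached the range of another, and the order was adult, tumour, P14. Adam12 rose at P14 (log2 fold change 2.52 ± 0.20, adjusted p = 5.25e-05) and in tumours (log2 fold change 1.07 ± 0.20, adjusted p = 0.00271), and tumours stood below P14 (log2 fold change -1.45 ± 0.19, adjusted p = 0.000191). Of the 18 P14 rises it was the 1 that was still called with the libraries of high Xist alone (log2 fold change 2.54). Adam19, or meltrin beta, which sheds neuregulin (ENSMUSG00000011256, chromosome 11, 46055992 to 46147343 on the plus strand), read 179.8, 112, 149 and 215 CPM in the adult, 155, 143, 206 and 173 CPM at P14 and 41.7, 56.1, 71.3 and 122 CPM in tumours. Tumour libraries were low except T8M, which entered the adult range. Adam19 fell in tumours against the adult (log2 fold change -1.17 ± 0.30, adjusted p = 0.0163) and was lower than at P14 (log2 fold change -1.22 ± 0.30, adjusted p = 0.00704). Adam15, an ADAM with an integrin-binding motif, read 44.6, 53.5, 42.8 and 38.1 CPM in the adult, 37.2, 33.7, 39.4 and 32.8 CPM at P14 and 30.5, 31.8, 28.3 and 19.9 CPM in tumours, all tumour values being below the others. It fell in tumours against the adult (log2 fold change -0.70 ± 0.16, adjusted p = 0.011), a call lost with the term for Xist (-0.61, adjusted p = 0.0547), and tumour against P14 (-0.37 ± 0.16, adjusted p = 0.0888) was called without T2M (-0.46). Adam33 ranged from 0.808 to 16.4 CPM with no call.

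Adam8 and Adam28 had the largest rises in tumours. Adam28, first described in lymphocytes and also made by epithelium (ENSMUSG00000014725, chromosome 14, 68606027 to 68655842 on the minus strand), read 0.160, 0.221, 0.252 and 0.545 CPM in the adult, 0.0275, 0.0310, 0.104 and 0.112 CPM at P14 and 8.28, 20.3, 54.4 and 22.5 CPM in tumours. The adult libraries held 5, 6, 7 and 16 counts and the P14 libraries 1, 1, 3 and 4, so the gene was at a few reads per library there, against 184, 568, 1212 and 315 counts in tumours. Adam28 rose in tumours against the adult (log2 fold change 6.46 ± 0.63, adjusted p = 6.29e-05, or 5.83 without T6M) and was higher than at P14 (log2 fold change 8.52 ± 0.72, adjusted p = 1.27e-05, or 7.88 without T6M). At P14 against the adult it gave -2.05 ± 0.79 (adjusted p = 0.0669), called lower without T1M or T6M (-2.05 in both) and by DESeq2 (-2.13). Adam8, a protease of granulocytes and monocytes (ENSMUSG00000025473, chromosome 7, 139978932 to 139992562 on the minus strand), read 2.95, 3.06, 3.75 and 4.16 CPM in the adult, 1.43, 1.83, 2.28 and 3.10 CPM at P14 and 19.3, 21.2, 69.9 and 41.9 CPM in tumours. Every tumour library was above every other, T6M highest. Adam8 rose in tumours against the adult (log2 fold change 3.45 ± 0.41, adjusted p = 0.000217) and was higher than at P14 (log2 fold change 4.14 ± 0.42, adjusted p = 3.66e-05). It overlaps Gm16201 on the other strand. The Adam8 promoter window is chr7:139992563-139992812 on the minus strand, with CCAAT matches, read on the reverse strand, at 211 and 17 bases and a GC box at 35 bases before the start in capitals.
Adam8: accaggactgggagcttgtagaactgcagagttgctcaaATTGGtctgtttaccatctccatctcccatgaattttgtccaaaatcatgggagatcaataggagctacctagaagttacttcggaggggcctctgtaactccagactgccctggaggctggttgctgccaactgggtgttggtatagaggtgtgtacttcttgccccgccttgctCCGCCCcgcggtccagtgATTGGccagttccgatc
Squamous and neutrophil marker sums were, like these genes, higher in every tumour library than in any other, and the other sums given here were not. Squamous markers stood at 5591, 5021, 4085 and 12449 CPM in tumours, and the 5 neutrophil markers at 75.7, 840.4, 20.9 and 26.4 CPM, against 0.721 to 1.84 CPM in the adult and 0.248 to 0.553 CPM at P14. The 5 listed B and plasma cell markers summed to 208 to 1184 CPM in the adult and 17.4 to 840.4 CPM in tumours. The 12 macrophage and leukocyte markers summed to 160.0 to 213 CPM in the adult, 26.02 to 42.6 CPM at P14 and 13.4 to 119.6 CPM in tumours. Of these 12, 5 were called lower in tumours than in the adult and 0 higher. S100a8 and S100a9 made up nearly all of the neutrophil sum, and keratinocytes make them too. The other 3 markers stood out in T2M: Cxcr2 read 0.135, 7.48, 0.0898 and 0 CPM in T1M to T8M, Retnlg 0.315, 14.9, 0.0898 and 0 CPM, and Csf3r 0.63, 9.56, 0.359 and 0.643 CPM, against 0.239 to 0.516 CPM for Csf3r in the adult. T6M, highest for Adam8 and Adam28, was lowest of the tumours for the squamous and neutrophil sums. Krt14, the largest part of the squamous sum, read 3450, 3750, 1940 and 8930 CPM in T1M, T2M, T6M and T8M. Krt5 and Trp63 were likewise lowest in T6M. Krt13 read 133, 71.2, 1020 and 912 CPM and Krt4 119, 35.3, 269 and 590 CPM, both higher in T6M and T8M than in T1M and T2M. The part of squamous cells, neutrophils, macrophages, B and plasma cells in the rises was not tested.

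**Figure D4:**
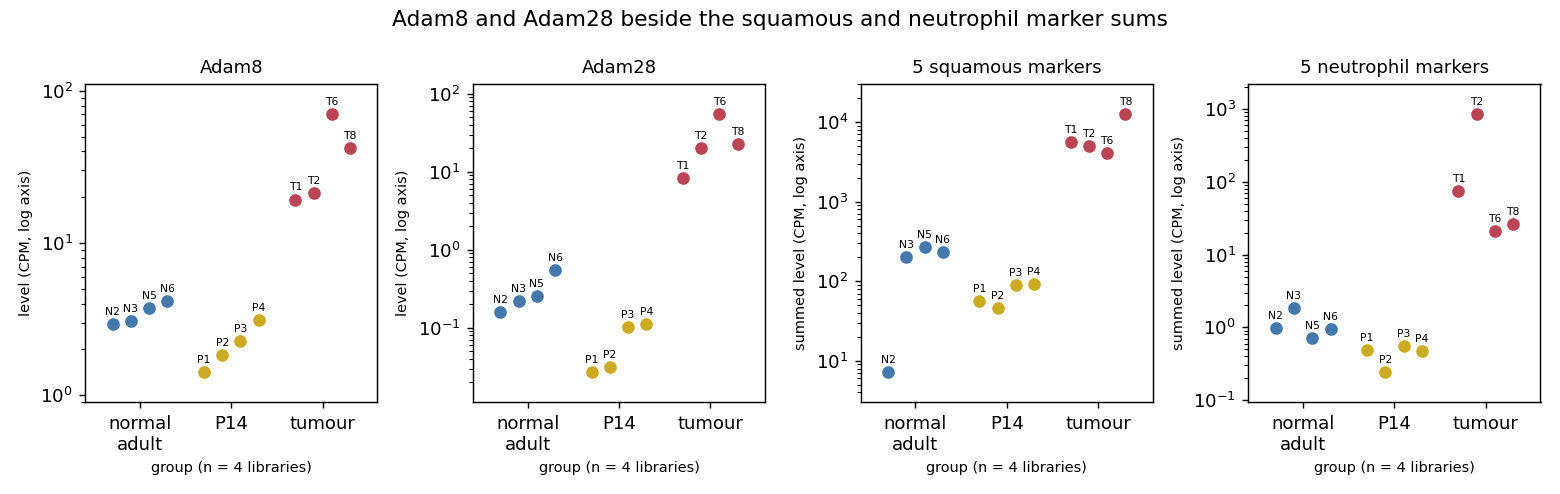
Level in CPM (vertical log axes) of Adam8 and Adam28, and the summed CPM of 5 squamous and 5 neutrophil markers, in each library of the 3 groups (n = 4). All 4 quantities are higher in each tumour library than in any other, while T6M is highest for both genes and lowest of the tumours for both sums. S100a8 and S100a9 carry the neutrophil sum, and Krt14 is the largest part of the squamous sum. Krt13 and Krt4, also squamous markers, are higher in T6M and T8M than in T1M and T2M.

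The 3 ADAMs that lack a catalytic site are receptors and adhesion proteins best known in the nervous system, and 2 of them rose at P14 and 2 fell in tumours. Adam23, a partner of the secreted protein LGI1 (ENSMUSG00000025964, chromosome 1, 63445891 to 63596276 on the plus strand), read 110.0, 53.2, 54.4 and 85.9 CPM in the adult, 133, 129, 155 and 112 CPM at P14 and 37.7, 28.4, 21.1 and 28.02 CPM in tumours, with the 3 groups apart. It fell in tumours against the adult (log2 fold change -1.40 ± 0.25, adjusted p = 0.00222) and was lower than at P14 (log2 fold change -2.20 ± 0.25, adjusted p = 6.85e-05). Its P14 rise (log2 fold change 0.80 ± 0.24, adjusted p = 0.0241) ended without N3M (0.67), N5M (0.67), P1M (0.80) or P3M (0.72). Adam22, the other LGI1 receptor, read 7.53, 7.04, 9.91 and 11.04 CPM in the adult, 26.05, 31.2, 16.04 and 19.8 CPM at P14 and 10.6, 7.59, 5.88 and 6.72 CPM in tumours. P14 was highest and adult and tumour libraries overlapped. Adam22 rose at P14 (log2 fold change 1.39 ± 0.25, adjusted p = 0.00192) and was lower in tumours than at P14 (log2 fold change -1.60 ± 0.26, adjusted p = 0.000572). Adam11 read 17.6, 9.62, 19.4 and 38.03 CPM in the adult, 16.3, 18.9, 20.4 and 16.1 CPM at P14 and 2.38, 6.94, 9.47 and 10.1 CPM in tumours, where T8M exceeded the lowest adult library. It fell in tumours against the adult (log2 fold change -1.56 ± 0.43, adjusted p = 0.0257), a call lost without N5M (-1.60) or N6M (-1.11) or with the 2 groups alone (-1.55), and was lower than at P14 (log2 fold change -1.32 ± 0.43, adjusted p = 0.0305), lost without P1M (-1.36), P2M (-1.29), P3M (-1.25), T1M (-1.02) or T2M (-1.31). The 7 enteric neuron markers summed to 4.65 to 6.68 CPM in the adult, 14.5 to 37.4 CPM at P14 and 11.6 to 21.02 CPM in tumours, and 6 of the 7 were called higher at P14. Tubb3 was the largest part of the tumour sum, at 5.83 to 13.9 CPM against 1.19 to 1.6 CPM in the adult. In tumours 1 of the 7 was called higher than in the adult, and 5 were lower and 1 higher than at P14. Of the 6 glial markers 4 were called higher at P14 against the adult (median log2 fold change 1.49), and 4 were lower in tumours than at P14 (median -2.02). Adam22, Adam23 and most neuron markers were also called in these directions. In tumours against the adult 1 glial marker was called lower (median -0.586), where Adam23 fell and Adam22 was not called. The glial sum given above runs the other way at P14 because Erbb3, which epithelium also makes, holds most of it, at 155 to 281 CPM in the adult and 39.8 to 91.0 CPM at P14. The part of neurons and glia in these changes was not tested.

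Of the members known mainly from testis, 3 were listed, all at low levels. Adam5 averaged 1.31 ± 0.272 CPM in the adult, 2.73 ± 0.322 CPM at P14 and 0.468 ± 0.241 CPM in tumours. It fell in tumours against the adult (log2 fold change -1.47 ± 0.37, adjusted p = 0.0159) and was lower than at P14 (log2 fold change -2.52 ± 0.37, adjusted p = 0.000339), while its P14 rise (log2 fold change 1.05 ± 0.34, adjusted p = 0.0333) ended without N3M, N5M, N6M or any 1 of the P14 libraries (0.94 to 1.11), and with the term for Xist (1.05, adjusted p = 0.0506). The fit of tumour and adult alone did not call its tumour fall (-1.46, adjusted p = 0.0655). Adam1a averaged 1.98 ± 0.241, 3.10 ± 0.587 and 1.60 ± 0.382 CPM and was lower in tumours than at P14 (log2 fold change -0.95 ± 0.26, adjusted p = 0.0137), a call lost with the term for Xist (-0.87, adjusted p = 0.0584). At P14 against the adult DESeq2 called it higher (0.63, adjusted p = 0.0422), as did the fit of those groups alone. Its exons overlap those of Mapkapk5 on the same strand, so reads may belong to either. Adam4 ranged from 1.32 to 4.93 CPM and was not called, except for tumour against P14 without T2M (0.95) or T6M (0.98) or by DESeq2 (0.80), and for P14 against the adult with those groups alone (-0.68).

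Of the enzymes that add sugars to thrombospondin repeats, a step in the folding and secretion of ADAMTS proteins, 4 were tested: 3 rose at P14, none passed in tumours against the adult, and 4 were lower in tumours than at P14. Pofut2, which adds fucose to the repeats, averaged 58.03 ± 4.16 CPM in the adult, 113 ± 7.12 CPM at P14 and 60.5 ± 6.19 CPM in tumours (log2 fold change 0.95 ± 0.11, adjusted p = 0.000244 at P14 against the adult). B3glct, which extends that fucose with glucose, averaged 13.5 ± 0.399, 26.2 ± 2.26 and 14.3 ± 3.45 CPM (log2 fold change 0.96 ± 0.17, adjusted p = 0.00151). Dpy19l1, a mannosyltransferase, averaged 51.00 ± 6.62, 96.9 ± 11.5 and 49.8 ± 14.1 CPM (log2 fold change 0.93 ± 0.18, adjusted p = 0.0029). These 3 genes had the same 3 calls as the 10 members named above.

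Of 3 tested hyaluronan-binding proteoglycans, 3 rose at P14, 1 rose in tumours against the adult and 2 were lower in tumours than at P14. Vcan, versican, averaged 323 ± 67.8 CPM in the adult, 792 ± 109.8 CPM at P14 and 378 ± 148 CPM in tumours (log2 fold change 1.30 ± 0.27, adjusted p = 0.00339 at P14). Acan, aggrecan, averaged 0.161 ± 0.195, 3.29 ± 4.06 and 7.48 ± 4.22 CPM, and rose at P14 (log2 fold change 4.29 ± 1.03, adjusted p = 0.00776) and in tumours (log2 fold change 5.48 ± 1.06, adjusted p = 0.00392). It was very low in the adult, and its P14 SD exceeded its P14 mean. Bcan, the remaining gene of this list, was very low in every group, at 0.503 ± 0.145, 1.38 ± 0.147 and 0.381 ± 0.243 CPM. Of 4 tested procollagens, 4 rose at P14, none passed in tumours against the adult, and 4 were lower in tumours than at P14. Col1a2 averaged 3765 ± 233, 13852 ± 833 and 2963 ± 733 CPM (log2 fold change -2.22 ± 0.20, adjusted p = 2e-05 for tumour against P14). Among 5 microfibril partners 3 rose at P14 (Fbn2, Thsd4 and Ltbp1), 1 fell (Papln, -1.82 ± 0.41), and 2 fell in tumours (Fbn1 and Fbn2). Fbn2, the fibrillin of growing tissue, averaged 33.3 ± 5.59, 348 ± 75.5 and 15.7 ± 10.2 CPM, and Fbn1 2306 ± 150.5, 2338 ± 283 and 831 ± 279 CPM. Fbn1 fell in tumours against the adult (log2 fold change -1.47 ± 0.22, adjusted p = 0.000857), as did Adamts10 above. Thbs2 rose at P14 (log2 fold change 1.55 ± 0.26, adjusted p = 0.00134), and Comp itself was not analysed here.

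Of 5 endogenous inhibitors, 1 fell at P14 (Timp4), a share near the 16.0% of all tested genes, and in tumours 1 rose and 2 fell against the adult (Timp4 and Reck), where 10.6% and 8.29% of all tested genes did so. Timp1, a secreted inhibitor, averaged 22.3 ± 2.92 CPM in the adult, 27.7 ± 4.03 CPM at P14 and 56.5 ± 26.5 CPM in tumours and rose in tumours (log2 fold change 1.34 ± 0.26, adjusted p = 0.00375). Reck, a membrane-anchored inhibitor, averaged 38.9 ± 8.42, 56.5 ± 4.39 and 23.4 ± 9.01 CPM and fell in tumours (log2 fold change -0.74 ± 0.24, adjusted p = 0.0459). Of 4 proprotein convertases, which remove the inhibitory prodomain, 2 fell at P14 (Pcsk5 and Pcsk7), and in tumours 1 rose (Furin) and 3 fell. Furin averaged 38.4 ± 2.85, 36.6 ± 14.3 and 83.9 ± 20.4 CPM and rose in tumours (log2 fold change 1.13 ± 0.26, adjusted p = 0.00994), whereas Pcsk5, at 268 ± 82.8, 102 ± 14.8 and 69.7 ± 23.6 CPM, fell in tumours (log2 fold change -1.95 ± 0.27, adjusted p = 0.00052) and at P14 (log2 fold change -1.39 ± 0.26, adjusted p = 0.00229). Pcsk6 fell in tumours (log2 fold change -1.47 ± 0.34, adjusted p = 0.0097).

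Among 8 tested partners that carry ADAM10 and ADAM17 to the cell surface, 3 fell at P14 (Tspan15, Tspan33 and Rhbdf2), and in tumours 1 rose (Tspan14) and 2 fell against the adult (Tspan15 and Tspan33). Tspan15, which steers ADAM10 to cadherins, averaged 68.4 ± 16.8 CPM in the adult, 29.5 ± 1.84 CPM at P14 and 36.9 ± 11.6 CPM in tumours (log2 fold change -1.21 ± 0.23, adjusted p = 0.00226 at P14). Tspan14 rose in tumours (log2 fold change 0.93 ± 0.29, adjusted p = 0.0399). Rhbdf2, the iRhom that escorts ADAM17, averaged 16.3 ± 1.29, 8.26 ± 3.63 and 25.4 ± 12.7 CPM, and was higher in tumours than at P14 (log2 fold change 1.62 ± 0.35, adjusted p = 0.00356). Of 6 EGF family ligands, which these sheddases release, 1 rose (Ereg) and 3 fell (Hbegf, Tgfa and Areg) at P14, 1 rose in tumours (Ereg) against the adult, and 4 were higher in tumours than at P14. Ereg, epiregulin, averaged 45.4 ± 3.20, 269 ± 167 and 157 ± 105 CPM and rose in tumours (log2 fold change 1.79 ± 0.56, adjusted p = 0.0404) and at P14 (log2 fold change 2.56 ± 0.57, adjusted p = 0.00531). Hbegf averaged 150.4 ± 50.6, 37.8 ± 21.04 and 168 ± 42.1 CPM and fell at P14 (log2 fold change -1.99 ± 0.35, adjusted p = 0.00164). Of 3 receptors that clear or hold ADAMTS proteins, Sdc4 fell at P14 (log2 fold change -0.66 ± 0.16, adjusted p = 0.00819) and Lrp2 in tumours (log2 fold change -2.78 ± 0.74, adjusted p = 0.0203). Lrp2 was at very low levels, averaging 0.871 ± 0.641 CPM in the adult and 0.114 ± 0.0787 CPM in tumours. Timp4, Ltbp1, Lrp2 and Bcan lie outside the naming rule and were named after their values were seen. Epithelial marker sums were lower at P14 than in the adult, as given above, and their part in the falls of ligands and partners was not tested.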

How the data were processed

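RNA from 12 sorted stromal libraries was read as single-end 75 base reads from stranded poly(A) libraries, per the labels' protocols. The deposited file holds whole-number counts per gene. The authors' processing lists STAR 2.4.2a, edgeR 3.28.0 and the GRCm38 build, per the submitters' processing notes, and the counting tool is not given in the sources used here. Of 19049 genes 19012 matched GENCODE M21. Genes with low counts were filtered with filterByExpr (minimum count 10, total 15), which removed 322. All 12 libraries were fitted together by group with TMM scaling in edgeR 4.0.16 (R 4.3.3), and p-values were adjusted by Benjamini-Hochberg over 18727 genes. CPM per kb divides by GENCODE union exon length. The method was tested on simulated data. The members and gene lists were chosen with earlier results of these data known.

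Members called in a comparison with a mean of at least 5 CPM in a group are given by library, called members below that by group means, uncalled ones of at least 50 CPM by library or range, and the rest by range. Up to 3 called genes of each partner list and comparison, by absolute log2 fold change at 5 CPM or more, were eligible to be named. Total counts were 26392364 to 29911817 in normal adult, 29499836 to 38799033 in P14 and 15449444 to 28471598 in tumour libraries. No 2 libraries of a group agreed within sampling noise (chi-square per degree of freedom 11.7 to 238). Alternatives were DESeq2 1.42.0, limma voom 3.58.1, other scalings, no filter, the 2 groups alone, a stricter threshold, a replicate block, and each library left out. A term for Xist and the libraries of high Xist alone were added after the data were seen, as was the list of immediate early genes. Promoter sequences came from RefSeq on GRCm38.p6.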

Additional observations from a re-analysis of the deposited data

Results flagged for a closer look

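Among 105 groups of 4 libraries tested for a library far from the other 3, 4 were singled out, and chance singles out about 1 in 20. In each, the gap to the nearest library took up more of the group's range than Dixon's critical value allows. Adam9 stood at 198 CPM in P14 library P3M, against 166 to 170 CPM in the others. Adamts7 stood at 50.04 CPM in P3M, against 35.1 to 37.4 CPM. Adamts12 stood at 132 CPM in P4M, below the 155 to 159 CPM of the other P14 libraries. Adamts9 stood at 75.1 CPM in normal adult library N6M, against 44.5 to 49.7 CPM.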

How the results depend on the processing

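No member changed sign in a call under any alternative run. At P14 against normal adult, 13 of 18 calls were kept whichever library was left out, in tumours against normal adult 10 of 13, and in tumours against P14 21 of 24. With 1 library left out the counts of members called higher and lower ranged from 13 to 19 and from 0 to 2 at P14 against normal adult, from 4 to 7 and from 6 to 9 in tumours against normal adult, and from 2 to 4 and from 19 to 22 in tumours against P14. At P14, DESeq2 called 1 member lower and the fit of the 2 groups alone called 3 lower. In tumours against normal adult, the 2 groups alone gave 5 lower, and an adjusted p under 0.01 gave 3 higher and 3 lower. The libraries of high Xist alone gave 1 higher at P14, and 2 higher and 2 lower in tumours, with fewer samples per group. Beyond that construction, the cause was not tested.

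The replicate numbers in the titles do not state a shared animal or day, so they were read as names. Deviations from group means in same-numbered libraries correlated at r from -0.369 to 0.408 over 6 pairs. The pairs numbered 2 were all positive (0.265, 0.408 and 0.346), and those numbered 3, 6 and 1 gave -0.369, 0.0281 and -0.128. So few pairs cannot decide whether the numbers mark a shared batch. With the replicate block 9 members were called higher at P14, and 2 higher and 3 lower in tumours against normal adult. That fit has fewer degrees of freedom, and N5M, P4M and T8M share their number with no other library. The cause of the lower counts was not tested. T8M, at 15449444 counts, limits low members most.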

Other observations

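The tumour libraries differ in age, at 12, 13, 14 and 14 weeks. Both 14-week libraries (T6M and T8M) were lower than both younger ones in 16 of 39 members (41.0%) and higher in 7 (17.9%), where 19.2% and 14.4% of all tested genes did so. Adamts5, Adamts10, Adamts19, Adamtsl3 and Adamtsl5 were among those lower, and Adam8 and Adam28 among those higher. With 2 libraries on each side this is a description with no test, and age cannot be told apart from the other differences between these libraries.

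Pericyte markers, a list of 7 genes, summed to 571 to 1012 CPM in normal adult, 1720 to 2538 CPM in P14 and 1928 to 3960 CPM in tumour libraries, and all 7 rose in tumours against the adult. At P14 against the adult 5 of the 7 rose. Adamts8 and Adam12 also rose at P14 and in tumours. Both were lower in tumours than at P14, a comparison in which 0 pericyte markers were called lower and 1 higher. The part of pericytes in the rises of Adamts8 and Adam12 was not tested.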
